A study of Mus musculus with 4 samples.

Results

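Matrix proteases and their inhibitors were examined in NIH 3T3 cells, a mouse fibroblast line, in which the selenoprotein T gene was targeted by either of 2 knockdown constructs. The group held 8 listed genes: the matrix metalloproteinases Mmp2, Mmp3 and Mmp14, the tissue inhibitors of metalloproteinases Timp1, Timp2 and Timp3, and the serpins Serpinf1 and Serpine2. Probes were found by gene name for 6 of the 8 genes, among 12347 named genes of the array, and these were 7 of its 22534 probes. Mmp3 and Serpine2 were not analysed here. Of the 6 genes, 5 had a value on all 4 arrays, Mmp2 had a value on 3, and 0 had values with siSelT-5 only.

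Each array compared Cy5-labelled RNA of knockdown cells with Cy3-labelled RNA of cells that carried the empty pU6-m3 vector, so that the value of a probe is a log ratio, read here as log2 of knockdown over vector. siSelT-1 was directed at nucleotides 205 to 224 of the Selt transcript and siSelT-5 at nucleotides 971 to 989, with 2 arrays for each, made from different cultures at different times. Knockdown and vector cells alike were stable under hygromycin B (150 µg/ml) and grew in medium with 10% serum and 100 nM selenite. The labels do not say whether a line was a clone or a pool. No probe was named for the targeted gene, whose knockdown was therefore not checked here.

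Matrix metalloproteinases are zinc enzymes that cut collagens and other matrix proteins and are made as inactive precursors. MMP14 is anchored in the cell membrane, where TIMP2 links it to the precursor of MMP2, so that TIMP2 acts both as an inhibitor and as a partner in the activation of MMP2. TIMP1 is secreted and inhibits MMP14 poorly, whereas TIMP3 is bound to the matrix and also inhibits enzymes of the ADAM and ADAMTS families. SERPINF1, or pigment epithelium-derived factor, has the fold of a serine protease inhibitor without inhibiting proteases, and is known for blocking the growth of blood vessels.

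The arrays differed in coverage and in centre. Values were present for 7689 and 9232 probes with siSelT-1, against 20268 and 18361 with siSelT-5. On the 7038 probes with a value on every array, the median log2 ratio was 0.19 and 0.09 with siSelT-1 and 0.43 and 0.36 with siSelT-5. Over all values of an array the medians were 0.18 and 0.06 with siSelT-1 and -0.22 and -0.19 with siSelT-5. Ratios called centred were taken from the medians of shared probes, which lowered a mean over the 4 arrays by 0.27. Of 12 fibroblast markers, 8 had values on all 4 arrays, and 4 of them rose and 3 fell (log2 ratio -0.61 to 0.88), where 45.7% of all tested genes rose and 8.04% fell. Of other cell types, the endothelial markers Pecam1 and Tie1 (2 of 4 markers) rose to 0.70 and 0.72, the macrophage marker Lyz2 (1 of 5) stood at -0.20 and did not pass, and 0 of 5 epithelial markers had values on all arrays. A ratio gives no level, so absence of a cell type could not be read from these values, and the part of such cells in the results below was not tested.

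The 250 bases before the start of each gene tested on all 4 arrays are printed to show what sequence lies in front of the transcripts that moved, with Timp1, which did not pass, beside them. The sequences are those of RefSeq on GRCm38.p6, 5′ to 3′ on the strand of the gene. They are chr14:54431348-54431597 (plus strand) for Mmp14, chrX:20869916-20870165 (plus) for Timp1, chr11:118355412-118355661 (minus) for Timp2, chr10:86300162-86300411 (plus) for Timp3 and chr11:75422624-75422873 (minus) for Serpinf1. Capitals mark matches, on either strand, to the GC box letters GGGCGG, to the CCAAT box, to the TATA box letters TATAAA, to the AP-1 letters TGANTCA and to TGACNNNGC, the core of the antioxidant response element, which can overlap one another.
Mmp14: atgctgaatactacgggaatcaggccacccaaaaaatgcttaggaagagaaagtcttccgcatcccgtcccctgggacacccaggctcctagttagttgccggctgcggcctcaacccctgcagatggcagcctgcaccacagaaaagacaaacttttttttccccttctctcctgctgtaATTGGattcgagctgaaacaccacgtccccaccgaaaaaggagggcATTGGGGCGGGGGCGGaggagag
Timp1: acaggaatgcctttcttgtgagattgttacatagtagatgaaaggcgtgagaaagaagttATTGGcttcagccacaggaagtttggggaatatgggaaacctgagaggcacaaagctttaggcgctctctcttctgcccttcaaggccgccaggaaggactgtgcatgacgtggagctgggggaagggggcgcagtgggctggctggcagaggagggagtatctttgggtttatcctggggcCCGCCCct
Timp2: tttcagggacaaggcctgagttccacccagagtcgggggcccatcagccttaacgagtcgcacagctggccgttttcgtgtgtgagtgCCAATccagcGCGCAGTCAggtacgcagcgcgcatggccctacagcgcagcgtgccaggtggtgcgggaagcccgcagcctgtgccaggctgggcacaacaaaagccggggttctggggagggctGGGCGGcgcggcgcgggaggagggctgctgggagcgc
Timp3: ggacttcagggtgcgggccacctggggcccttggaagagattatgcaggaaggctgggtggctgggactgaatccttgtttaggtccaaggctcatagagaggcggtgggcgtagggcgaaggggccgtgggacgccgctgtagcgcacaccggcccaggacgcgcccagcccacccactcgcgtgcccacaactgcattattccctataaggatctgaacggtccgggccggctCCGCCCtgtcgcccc
Serpinf1: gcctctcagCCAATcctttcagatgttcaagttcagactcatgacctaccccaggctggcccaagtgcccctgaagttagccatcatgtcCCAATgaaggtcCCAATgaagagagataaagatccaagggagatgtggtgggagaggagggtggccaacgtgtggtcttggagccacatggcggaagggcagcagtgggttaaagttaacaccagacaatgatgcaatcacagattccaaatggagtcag

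GC box letters were present before Mmp14 (2 matches), Timp1 (1), Timp2 (1) and Timp3 (1), and CCAAT letters before Mmp14 (2), Timp1 (1), Timp2 (1) and Serpinf1 (3). Of 32851 RefSeq windows of this length, 32.7% held the GC box and 33.8% the CCAAT letters. The antioxidant response element letters occurred once, before Timp2 (10.2% of all windows). TATA box and AP-1 letters were in 0 of the 5 windows (12.4% and 6.75% of all windows). The windows of Timp2 and Timp3 were the richest in G and C, at 68.0% and 65.6% against a median of 52.4%, and that of Serpinf1 stood at 51.6%. CCAAT letters were thus before all 3 genes that rose, and also before Timp1. These are matches of letters, and binding was not measured.

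Against vector, 3 of the 5 genes rose over both constructs and 1 fell. Serpinf1, Timp2 and Mmp14 rose, to 1.75-fold, 1.55-fold and 1.42-fold, and Timp3 fell (1.27-fold lower). Timp1 stood at a log2 ratio of 0.18 and did not pass. A call required limma's p, adjusted over 4754 genes by Benjamini and Hochberg's method, to lie under 0.05. The intervals and p over both constructs rest on the spread of replicates within a construct. The difference between the constructs is outside them, but it is part of the SD over 4 arrays printed beside them. Of all genes 53.7% passed here, 45.7% as higher and 8.04% as lower, so nothing particular to the group is read from its 4 of 5. Over all tested genes the median log2 ratio was 0.25. After centring the same directions passed for these 4 genes, against 42.4% of all genes (20.5% higher, 21.9% lower).

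**Figure D1:**
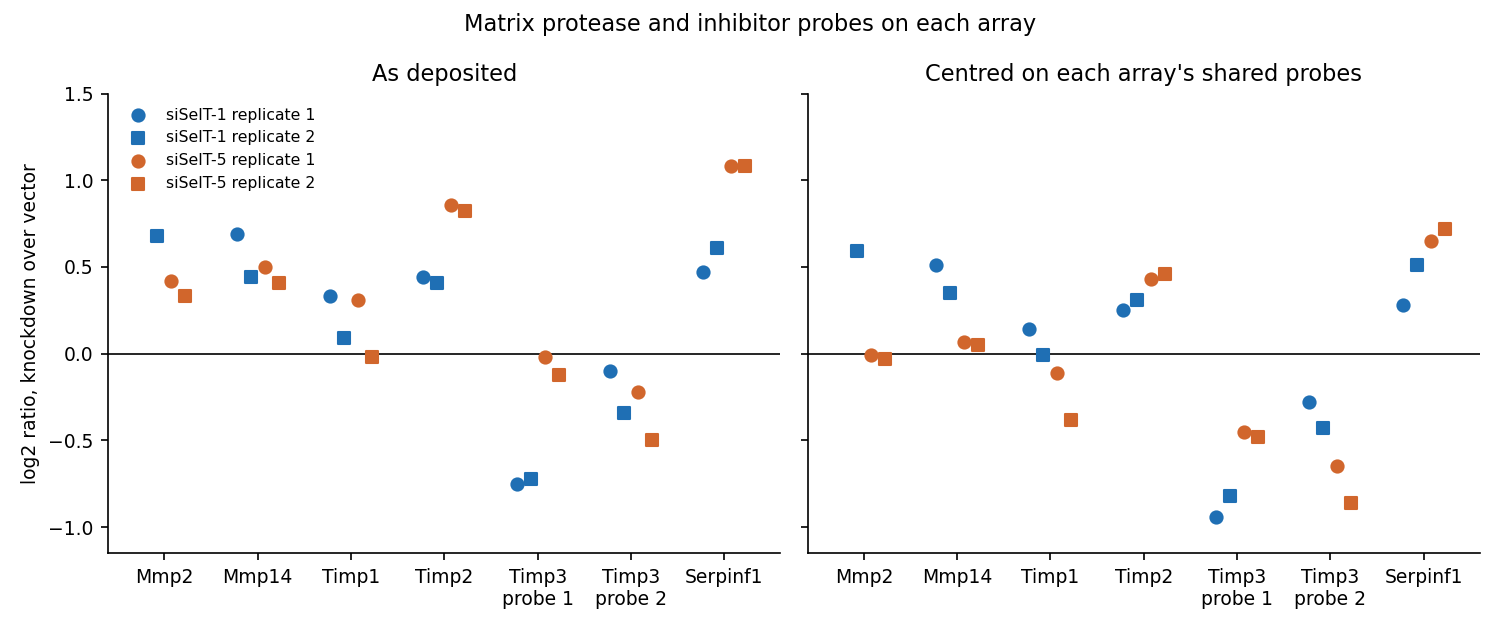
Log2 ratio of knockdown over vector (y axis) of each probe (x axis) on each array, as deposited on the left and centred on the right, with siSelT-1 in blue and siSelT-5 in orange. Timp2 and Serpinf1 lay above 0 and both Timp3 probes below 0 on all 4 arrays in both panels, while the siSelT-5 points of Mmp2 and Mmp14 lay at 0.07 or lower after centring.

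For the metalloproteinases, all values with either construct were above 0 as deposited. Mmp14 (Entrez Gene 17387) stood at log2 ratios of 0.69 and 0.44 with siSelT-1 and 0.50 and 0.41 with siSelT-5. All 4 values were above 0, and the arrays of the constructs overlapped. The mean was 0.51 ± 0.13 (SD, n = 4; limma, 95% interval 0.30 to 0.72, adjusted p = 0.00522). Centred, the values were 0.51 and 0.35 with siSelT-1 and 0.07 and 0.05 with siSelT-5, so that the siSelT-1 arrays lay apart and above. The centred mean over both constructs was 0.24 (limma, adjusted p = 0.0434). The centred difference between the constructs, 0.37, did not pass (limma, adjusted p = 0.189). Mmp2 (Entrez Gene 17390), which encodes gelatinase A, the enzyme that MMP14 activates, had no value on siSelT-1 replicate 1. It stood at 0.68 on siSelT-1 replicate 2, above its values of 0.42 and 0.33 with siSelT-5. In the fit that asked for a value on 1 array of each construct, in which 42.5% of 6024 genes passed and 34.2% passed as higher, Mmp2 passed over both constructs, at 0.53 with a 95% interval of 0.23 to 0.83 (adjusted p = 0.0221), and its siSelT-1 side there is that single array. Centred, it stood at 0.59 with siSelT-1 and at -0.01 and -0.03 with siSelT-5. For Mmp14 the order of the constructs depended on the centre: from each array's median over all its values it stood at 0.45 with siSelT-1 and 0.66 with siSelT-5.

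The inhibitors of metalloproteinases did not move together. Timp2 (Entrez Gene 21858) stood at 0.44 and 0.41 with siSelT-1 and at 0.86 and 0.82 with siSelT-5. Both siSelT-5 arrays were above both siSelT-1 arrays, and replicates lay close to each other. The mean was 0.63 ± 0.24 (SD, n = 4; limma, 95% interval 0.45 to 0.82, adjusted p = 0.00225), and centred it was 0.37 (adjusted p = 0.0133). Timp1 (Entrez Gene 21857) stood at 0.33 and 0.09 with siSelT-1 and at 0.31 and -0.02 with siSelT-5. The constructs overlapped, and replicates of a construct differed more than the constructs did. Its mean of 0.18 ± 0.17 had a 95% interval of -0.06 to 0.42 (limma, adjusted p = 0.174), and after centring it turned to -0.09 (adjusted p = 0.411). Without siSelT-5 replicate 2, the only array on which Timp1 lay below 0, its ratio over both constructs was 0.26. The siSelT-5 side is then a single array.

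Timp3 (Entrez Gene 21859) was measured by 2 probes. Their mean was -0.42 and -0.53 with siSelT-1 and -0.12 and -0.31 with siSelT-5. It was below 0 on every array, at -0.35 ± 0.17 (SD, n = 4; limma, 95% interval -0.55 to -0.15, adjusted p = 0.016). Centred it stood at -0.61 over both constructs, or 1.53-fold lower (limma, adjusted p = 0.00521). The constructs then overlapped, with -0.61 and -0.62 for siSelT-1 against -0.55 and -0.67 for siSelT-5. The probes differed in which construct moved them more. Probe 1 (1787512_1) stood at -0.75 and -0.72 with siSelT-1 and at -0.02 and -0.12 with siSelT-5. Probe 2 (1790617_1) stood at -0.10 and -0.34 with siSelT-1 and at -0.22 and -0.50 with siSelT-5. Both probes passed as lower over both constructs in the fit of single probes (limma, adjusted p = 0.00897 and 0.0484), and with siSelT-1 alone probe 1 passed (-0.74, adjusted p = 0.033) and probe 2 did not (-0.22, 0.309). Probe 1 was the lower of the pair by 0.65 and 0.39 with siSelT-1, and the higher by 0.20 and 0.38 with siSelT-5. Of 751 genes with 2 probes on all arrays, 14.5% had probes that disagreed as much over the difference between constructs (0.81 log2). With siSelT-5 alone neither probe passed in that fit (probe 1 -0.07, limma, adjusted p = 0.61, and probe 2 -0.36, 0.0683). The size of the Timp3 ratio for either construct therefore depended on the probe. Its sign was negative for both probes on every array as deposited and centred on shared probes. The single probes were not read from the medians over all values.

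Serpinf1 (Entrez Gene 20317) had the highest mean over both constructs, though not with siSelT-1 alone, at 0.47 and 0.61 with siSelT-1 and 1.08 on both siSelT-5 arrays. The siSelT-5 arrays lay above the siSelT-1 arrays with no overlap. The mean was 0.81 ± 0.32 (SD, n = 4; limma, 95% interval 0.62 to 1.00, adjusted p = 0.00163), rank 292 from the top of 4754 genes. Centred it stood at 0.54 (adjusted p = 0.00723), with 0.28 and 0.51 for siSelT-1 and 0.65 and 0.72 for siSelT-5.

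The calls changed more than the ratios when a siSelT-1 array was left out. Without siSelT-1 replicate 1 the ratios stayed at 0.45 for Mmp14, 0.62 for Timp2, -0.37 for Timp3 and 0.84 for Serpinf1. Without siSelT-1 replicate 2 they were 0.57, 0.64, -0.32 and 0.77. In these fits the spread came from the siSelT-5 pair alone. The calls of the members and of all genes were lost without replicate 1, and that of Timp3 also without replicate 2. Such a loss does not show that 1 array carried the ratios. The knockdown RNA carried Cy5 on every array, so an effect of the dye on a probe and an effect of the knockdown cannot be told apart in the comparisons with vector.

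With siSelT-1 alone, Mmp14 and Serpinf1 rose and the TIMPs did not pass as deposited. Mmp14 stood at 0.57 ± 0.18 (SD, n = 2), or 1.48-fold (limma, adjusted p = 0.04), and Serpinf1 at 0.54 ± 0.10, or 1.45-fold (0.038). Timp2, at 0.42 ± 0.02, and Timp3, at -0.48 ± 0.08, did not pass (limma, adjusted p = 0.0539 and 0.0502), and Timp1 stood at 0.21 (0.33). These 2 of 5 genes compare with 13.7% of all genes, 10.3% higher and 3.37% lower. After centring Mmp14 (0.43, adjusted p = 0.061) and Serpinf1 (0.40, 0.0801) were lost, and Timp3 passed as lower (-0.62, 0.0352), against 8.90% of all genes, 3.83% higher and 5.07% lower. A lone siSelT-1 array left Mmp14 at 0.44 or 0.69 and Serpinf1 at 0.47 or 0.61, and the calls of members and of all genes were lost. Without either siSelT-5 array the siSelT-1 ratios stayed the same, at 0.42 for Timp2 and -0.48 for Timp3. Only the shared estimate of the spread changed there, and more members and more of all genes passed.

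With siSelT-5 alone, Serpinf1, Timp2 and Mmp14 rose, against 53.9% of all genes, 47.6% higher and 6.29% lower. Serpinf1 stood at 1.08, or 2.11-fold, with a 95% interval of 0.81 to 1.35 (limma, adjusted p = 0.0021). Timp2 stood at 0.84 ± 0.03 (SD, n = 2), or 1.79-fold (limma, adjusted p = 0.00265), and Mmp14 at 0.45 ± 0.06, or 1.37-fold (0.0232). Timp3 (-0.22, adjusted p = 0.159) and Timp1 (0.15, 0.401) did not pass. Centring changed the calls: Serpinf1 (0.69, adjusted p = 0.0114) and Timp2 (0.45, 0.0209) still rose, Timp3 fell (-0.61, 0.0118), and Mmp14 stood at 0.06 (0.654), against 39.2% of all genes, 19.2% higher and 20.0% lower. Centred instead on each array's median over all its values, Mmp14 stood at 0.66 (limma, adjusted p = 0.00395) and Timp3 at -0.01 (0.948). In the fit of the siSelT-5 arrays alone, where 28.8% of 9711 genes passed, Serpinf1 (adjusted p = 0.0208) and Timp2 (0.0323) rose and Mmp14 did not pass (interval -0.03 to 0.94, 0.125). Leaving out either siSelT-1 array kept the siSelT-5 ratio of Mmp14 at 0.45 and changed only the shared estimate of the spread. The Mmp14 call as deposited was lost there, and fewer of all genes passed.

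**Figure D2:**
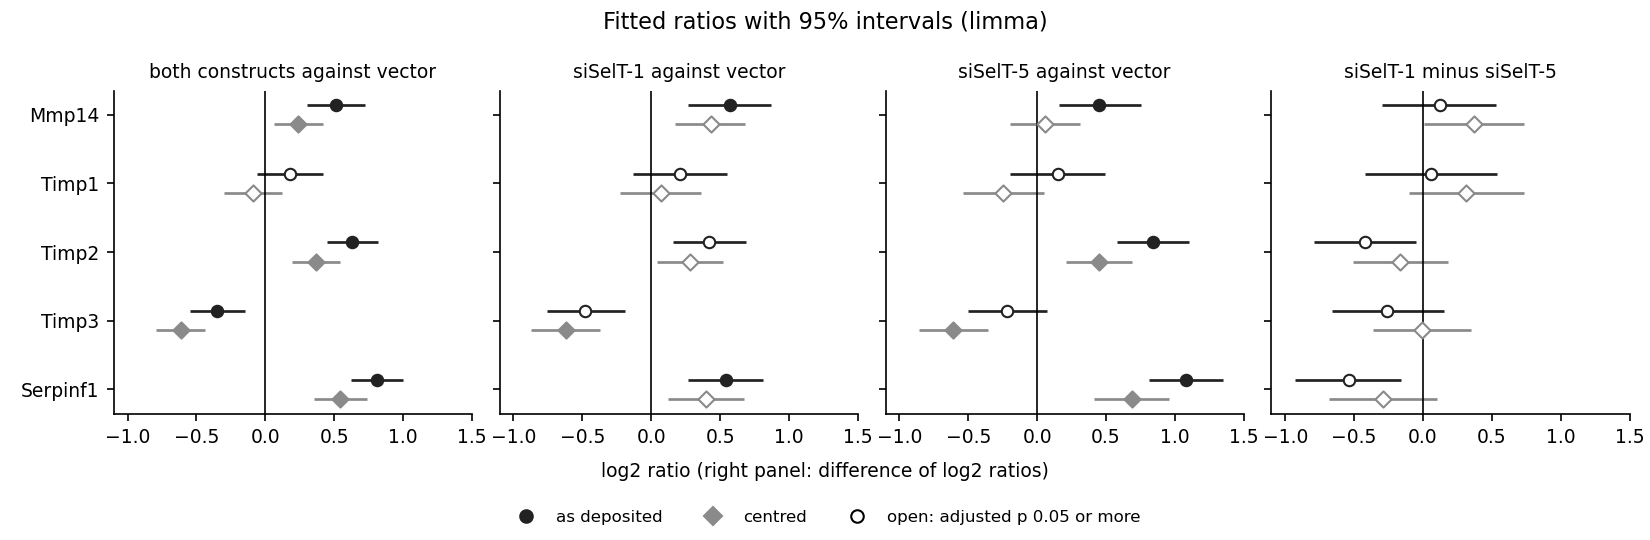
Fitted log2 ratio (x axis) with its 95% interval for the 5 genes with values on all 4 arrays (y axis), one panel for each comparison, as deposited (black) and centred (grey), with open symbols where the adjusted p was 0.05 or more. Timp3 moves away from 0 and Mmp14 towards 0 on centring in the siSelT-5 panel, and every symbol of the right panel is open.

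The direct comparison of the constructs called 0 of the 5 genes, and 0.0631% of all genes. Serpinf1 and Timp2 had an unadjusted limma p under 0.05, as did 1697 of the 4754 genes. Serpinf1 was lower with siSelT-1 by 0.54 log2, with a 95% interval of the difference from -0.93 to -0.16 (limma, adjusted p = 0.0748). With an array left out the difference ran from -0.61 to -0.47. Timp2 differed by -0.42, with an interval of -0.79 to -0.05 (limma, adjusted p = 0.111). As all tested genes had a median difference of -0.26, these shrank on centring, to -0.29 and -0.17 (limma, adjusted p = 0.29 and 0.457). Centred on all values of each array they grew, to -0.87 and -0.75, and passed (limma, adjusted p = 0.0131 and 0.0136), as did Timp3 (-0.59, 0.0277) and 2512 genes in all. For Mmp14 the difference was 0.12 as deposited (interval -0.30 to 0.53) 0.37 centred (interval 0.01 to 0.73; limma, adjusted p = 0.189) and -0.22 centred on all values (0.254). For Timp1 it was 0.06 (interval -0.42 to 0.54) and for Timp3 -0.26 (interval -0.66 to 0.15). The deposited intervals of these 3 genes include 0.

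Ranks do not change with a shift of a whole array or with the base of the logarithm. They do depend on the probes compared, here the 7038 shared probes. A rank in the middle of these therefore restates a ratio near the median used for centring. Serpinf1 was above 78.6% to 94.2% of the shared probes on each of the 4 arrays, and Timp2 above 76.0% to 83.0%. Timp3 probe 2 was above 11.3% to 22.8% of them. Mmp14 was above 92.5% and 86.0% of probes with siSelT-1 but 55.4% and 53.2% with siSelT-5, and Mmp2 above 96.2% on its siSelT-1 array against 49.4% and 48.1%. Among the shared probes both metalloproteinases thus ranked high with siSelT-1 and in the middle with siSelT-5. From each array's median over all its values, Mmp14 instead stood at 0.45 with siSelT-1 and 0.66 with siSelT-5. Timp3 probe 1 was above 1.83% and 2.54% of probes with siSelT-1, and above 21.1% and 23.7% with siSelT-5. Timp1 ran from 28.1% to 65.3%.

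**Figure D3:**
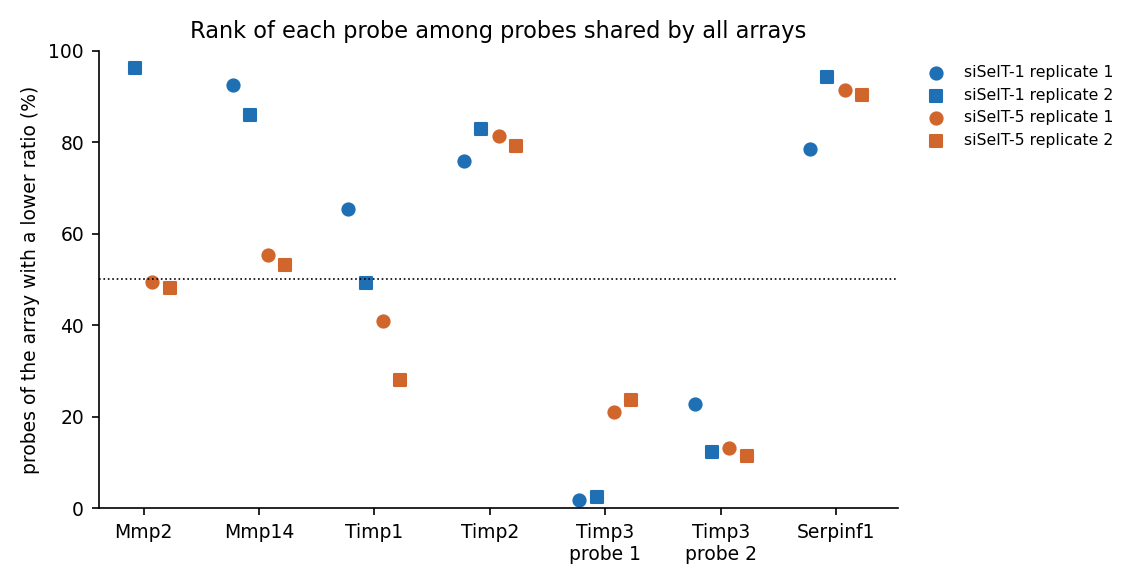
Share of the 7038 shared probes that had a lower ratio on the same array (y axis, percent) for each probe of the group (x axis), with siSelT-1 in blue and siSelT-5 in orange. The siSelT-5 points of Mmp2 and Mmp14 lie between 48.1% and 55.4%, below all their siSelT-1 points.

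Differences between genes on the same array are also free of the centre, and show unequal change without saying which gene changed. Timp2 exceeded Timp3 by 0.86 and 0.94 log2 with siSelT-1 and by 0.98 and 1.14 with siSelT-5, a mean of 0.98 ± 0.12 (SD, n = 4). Serpinf1 exceeded Timp3 by more on every array, by 0.89 and 1.14 with siSelT-1 and by 1.20 and 1.40 with siSelT-5. Mmp14 exceeded Timp3 by 1.12 and 0.98 with siSelT-1 and by 0.62 and 0.72 with siSelT-5. Mmp14 exceeded Timp1 on 4 of 4 arrays, by 0.33 ± 0.10. Between Mmp14 and Timp2, the enzyme and its partner, the sign turned with the construct: Mmp14 stood above Timp2 by 0.25 and 0.04 with siSelT-1 and below it, at -0.36 and -0.42, with siSelT-5. Timp2 relative to Mmp2 likewise stood at -0.28 on the siSelT-1 array and at 0.44 and 0.49 with siSelT-5. These are descriptions, with no test.

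The genes most like each member over the 4 arrays, by the root mean square difference of log2 ratios, were St13 and Tkt for Mmp14 (0.046 and 0.0578), and BC005624 and Ghitm for Timp1 (0.0193 and 0.0359). For Timp2 they were Ccdc34 and Tut7 (0.0288 and 0.0311), for Timp3 Samhd1 and Tti1 (0.0514 and 0.0532), and for Serpinf1 Wbp2 and Alad (0.0203 and 0.0512). None of these 10 genes is a protease or inhibitor of the lists used here. The lists held only 38 of the 4754 tested genes, so nothing about the members is read from this.

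Among the other metalloproteinases, Mmp24, a further membrane-type enzyme, rose to 0.62 ± 0.30 (SD, n = 4; limma, adjusted p = 0.00813), with 0.54 and 0.41 for siSelT-1 and 1.06 and 0.47 for siSelT-5, and Mmp19 did not pass (-0.17). The list of ADAM and ADAMTS proteases, families that hold enzymes inhibited by TIMP3, also took in Bmp1 and ADAMTS-like genes. Of its 12 tested genes, 5 rose and 1 fell as deposited, and 4 rose and 3 fell after centring (median 0.12 and -0.15, against 0.25 and -0.02 for all genes). Of all genes 45.7% rose and 8.04% fell as deposited, and 20.5% and 21.9% did so centred. Adamts1, a protease of the proteoglycans aggrecan and versican, rose to 0.88 ± 0.30, at 0.64 and 0.59 with siSelT-1 and 1.13 and 1.15 with siSelT-5 (limma, adjusted p = 0.00161). Over both constructs Adam19 rose to 0.70 ± 0.37 and Adam9 to 0.66 ± 0.44 (limma, adjusted p = 0.0023 and 0.00269). With siSelT-1 alone neither passed (Adam19 0.40, limma, adjusted p = 0.0775, and Adam9 0.29, 0.151). With siSelT-5 alone both passed (limma, adjusted p = 0.00244 for Adam19 and 0.0024 for Adam9). Their differences between the constructs did not pass (limma, adjusted p = 0.0724 and 0.059). Adam10, a sheddase of surface proteins, fell to -0.41 ± 0.58 (limma, adjusted p = 0.0435), and its arrays split by construct, with 0.15 and -0.10 for siSelT-1 against -1.18 and -0.51 for siSelT-5, a difference that did not pass (adjusted p = 0.0831). Its fall over both constructs did not pass centred on all values (-0.37, limma, adjusted p = 0.054) or in the fit of genes with a value on 1 array of each construct (0.0569). The sheddase Adam17 stood at 0.10 and did not pass. In the plasminogen system, a route of pericellular proteolysis that starts from plasminogen activators, Plat (0.12) and Plgrkt (0.07) were the 2 genes tested and neither passed.

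Of the 4 serpins tested, 3 rose as deposited and 2 after centring, against 45.7% and 20.5% of all genes, and Serpinb6a (0.05) did not pass. Beside Serpinf1, Serpinh1 rose to 0.70 ± 0.33 (SD, n = 4; limma, adjusted p = 0.00195), with 0.46 and 0.38 for siSelT-1 and 0.96 and 1.00 for siSelT-5. Serpina3n rose to 0.40 ± 0.43 as deposited (limma, adjusted p = 0.0174) and not after centring (0.237). It stood at 0.94 and 0.55 with siSelT-5 but at 0.14 and -0.02 with siSelT-1, where it did not pass (limma, adjusted p = 0.79). Serpinh1 is a collagen chaperone of the endoplasmic reticulum, so that of the rising serpins Serpina3n alone is known as a protease inhibitor. Over all 7 lists, the 33 tested genes other than the members had 14 higher and 2 lower as deposited (median 0.12) and 8 higher and 9 lower after centring (median -0.15), beside 45.7% higher and 8.04% lower of all genes as deposited and 20.5% and 21.9% after centring. The calls of these lists, like those of the members, were lost without siSelT-1 replicate 1.

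**Figure D4:**
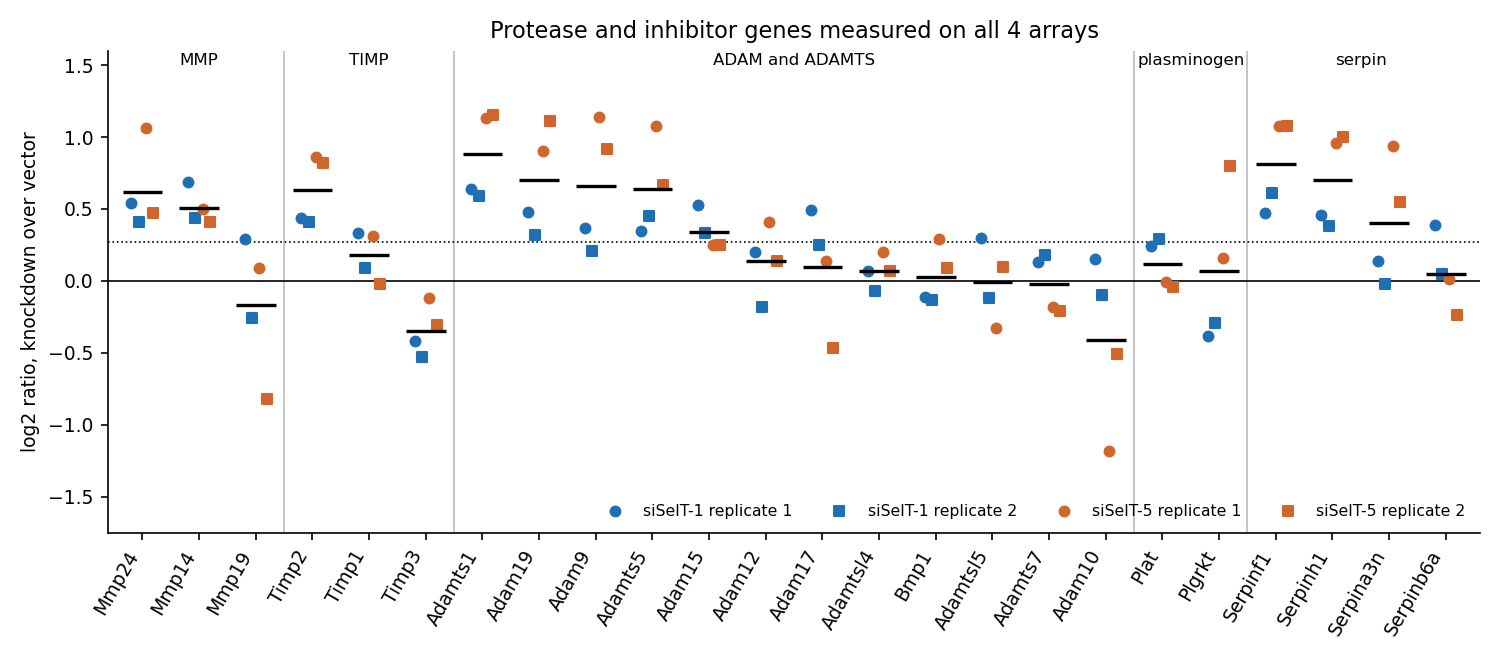
Log2 ratio of knockdown over vector (y axis) of the metalloproteinase, TIMP, ADAM and ADAMTS, plasminogen and serpin genes with values on all 4 arrays (x axis), with siSelT-1 in blue, siSelT-5 in orange, black bars at the mean of the 4 arrays and the dotted line at the mean shift of shared probes (0.27). Adamts1, Serpinf1 and Serpinh1 stand above the line with siSelT-5 over siSelT-1, and Timp3 and Adam10 have the lowest means.

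Genes measured by both siSelT-5 arrays but by neither siSelT-1 array were kept apart, and no member was among them. The lists held 32 such genes, and in the fit of the siSelT-5 arrays alone 1 rose and 11 fell, a median of -0.47. Of all 3880 such genes 1.37% rose and 38.3% fell, with a median of -0.65, beside 34.4% that fell here. Centred, 0 of the 32 rose and 17 fell (53.1%), where 0.232% of such genes rose and 69.0% fell. Mmp11, or stromelysin 3, fell to -1.09 ± 0.19 (SD, n = 2; limma, adjusted p = 0.0219). Mmp13, a collagenase, stood at -1.47 and 0.18, and its replicates disagreed. Timp4, the remaining TIMP, stood at 0.82 and 0.07 and did not pass (limma, adjusted p = 0.217). Adamts16 alone rose as deposited (0.84 ± 0.20; limma, adjusted p = 0.0356), and it did not pass centred (0.45, 0.128). Plaur, the receptor of urokinase, stood at -0.85 and 0.02 and did not pass (limma, adjusted p = 0.274). Mmp2, in the same fit, stood at 0.37 with a 95% interval of -0.11 to 0.86 (limma, adjusted p = 0.183).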

How the data were processed

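Each deposited value is one probe's log ratio on one array, taken here as log2 of Cy5 over Cy3, where per the labels Cy5 marked knockdown and Cy3 vector RNA. The log base, background correction, normalization and filter on spots are not given in the sources used here; every fold and direction rests on this reading. Probes were named through the platform annotation and Entrez identifiers (RefSeq genes of GRCm38.p6, 18041 probes matched, 0 symbols changed): 18129 probes had 1 name, 140 several and 4265 none. A gene was the mean of its single-name probes with values on all 4 arrays (4754 genes).

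The model (lmFit and eBayes of limma 3.58.1, under R 4.3.3) held 2 construct means and left 2 residual degrees of freedom. Tests were two-sided, with Benjamini-Hochberg adjustment over all genes at 0.05. siSelT-5 arrays were also fitted alone (9711 genes). Replicates were separate cultures; vector cultures may be shared. The fit over both constructs was tested on simulated data. These had no shift of a whole array and no missing values, so the effects of centring and coverage were not tested. The number of arrays limits precision.

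Members and lists were chosen with earlier results of these data known. Every member is named; of each list, up to 3 highest and 3 lowest genes that passed over both constructs, and for likeness the 2 genes nearest to each member. Other genes named (Mmp19, Adam17, Plat, Plgrkt, Serpinb6a, and those with siSelT-5 values only) were chosen after their values were seen. Alternatives were centring, single probes, looser filtering, unnamed probes, robust eBayes, a replicate block, arrays left out and a threshold of 0.1.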

Additional observations from a re-analysis of the deposited data

Results flagged for a closer look

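Htra2, which encodes a mitochondrial serine protease and was on the list of activation, clearance and surface partners, had ratios of opposite sign with the constructs. With siSelT-1 its log2 ratio was 0.16 and 0.39, and with siSelT-5 it was -0.81 and -1.45, a difference of 1.41 (limma, adjusted p = 0.0543), which did not pass. With siSelT-1 alone it did not pass (0.28, adjusted p = 0.316), and with siSelT-5 it fell (-1.13, 0.00459). Centred on all values of each array the difference was 1.08 and passed (0.0266). After centring on shared probes siSelT-1 replicate 1 stood at -0.02, so that the signs no longer split fully (adjusted p = 0.0927). Of all 4754 genes, 598 (12.6%) had both siSelT-1 arrays on one side of 0 and both siSelT-5 arrays on the other. No member of the protease and inhibitor group did so.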

How the results depend on the processing

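Of the 274 alternative values of single members, 217 kept their direction and side of the threshold, 24 lost the call, 21 gained it and 12 turned. Over both constructs 4 of the 5 members passed, 3 with the replicate block and centring (without Mmp14, adjusted p = 0.0635 in limma), and 0 to 5 with an array left out; over all genes 2554 passed, and 0 to 3190 with an array left out. With siSelT-1 alone 2 members passed: 1 under either centring and under the replicate block with centring, 0 with a value on 1 array of each construct and 0 with the replicate block (Mmp14 0.0571, Serpinf1 0.0592), 4 at a threshold of 0.1, and 0 to 4 with an array left out. Of all genes 650 passed: 423 centred on shared probes, 324 centred on all values, 67 with a value on 1 array of each construct, 35 with the replicate block, 1248 at 0.1, and 0 to 2089 with an array left out. With siSelT-5 alone 2 to 3 members and 1623 to 3027 of all genes passed with an array left out, and in the fit of the siSelT-5 arrays alone 2798, or 4250 at 0.1. In that fit 38.5% of the calls were higher as deposited, 9.05% centred on shared probes and 61.8% centred on all values. Between constructs 0 members passed, 3 centred on all values (Serpinf1, Timp2 and Timp3), 1 at 0.1 and 0 to 1 with an array left out. Of all genes 3 passed: 2512 centred on all values (1.55% of them higher with siSelT-1, against 33.3%), 0 with the replicate block, 76 with the block and centring, 1310 at 0.1 and 0 to 1796 with an array left out.

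Ratios that turned belonged to Timp1, Mmp14, Mmp2 and 1 Timp3 probe. Timp1 turned to -0.09 over both constructs and to -0.25 with siSelT-5, each centred on shared probes, without and with the replicate block, and ran from -0.02 to 0.31 with siSelT-5 when an array was left out. Between constructs Timp1 turned to -0.27 and Mmp14 to -0.22 centred on all values, with -0.11 to 0.23 and -0.01 to 0.24 with an array left out, and Timp3 probe 2 stood at 0.15. Mmp2 stood at -0.02 in the siSelT-5 fit centred on shared probes. Same-numbered replicates of the constructs hardly deviated together (Pearson's r = 0.0758 across 4754 genes, which are not independent replicates), so the numbers were not taken as pairs. Where an array was left out, the lone array was assumed to vary like the other construct. Without a siSelT-5 array no test of the siSelT-5 arrays alone was possible, and its values are those printed. The causes of these shifts were not tested.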

Other observations

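Of 7 lysosomal cathepsins, their inhibitors and the related protease gene Lgmn tested on all arrays, 5 rose and 0 fell over both constructs as deposited, and 1 rose after centring, where 45.7% of all genes rose as deposited and 20.5% centred. Cstb, for the cathepsin inhibitor cystatin B, rose to 0.60 ± 0.14 (SD, n = 4; limma, adjusted p = 0.00276, and 0.0169 centred). Ctsz rose to 0.50 ± 0.13 and Ctsb to 0.43 ± 0.14 as deposited only (limma, adjusted p = 0.0711 and 0.132 centred). Among genes with siSelT-5 values only, Ctsf (-1.12), Ctsl (-1.22) and Ctss (-1.48) all fell, where 38.3% of such genes did.

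Of 7 activation, clearance and surface partners, Bsg rose and Htra2 fell as deposited, where 45.7% of all genes rose and 8.04% fell. Bsg, for basigin, a surface inducer of metalloproteinases, rose to 0.68 ± 0.13 (SD, n = 4; limma, adjusted p = 0.00214, and 0.00972 centred), with 0.66 and 0.51 for siSelT-1 and 0.82 and 0.74 for siSelT-5. After centring the 6 others passed as lower, at -0.55 for Furin, the convertase that activates the MMP14 precursor, -0.46 for Sparc, -0.37 for the hyaluronan receptor gene Cd44, -0.30 for Thbs2 and -0.25 for Lrp1, a receptor that clears proteases, beside Htra2 at -0.69, where 21.9% of all genes fell. Centred on all values of each array, 1 gene of the list rose and 0 fell, where 2397 of all 4754 genes rose and 320 fell. The 5 genes other than Htra2 were named after their values were seen, and over both constructs none of them passed as deposited, while Sparc fell with siSelT-1 alone (-0.53, limma, adjusted p = 0.04). The Lrp1 value was a mean over 88 probes, where the other genes of the list had 1 or 2.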
